A study of Homo sapiens with 6 samples.

Results

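H3K27ac marks active promoters and enhancers, and in most cells a small number of peaks are far wider than the rest. The H3K27ac peaks of 2500 bp or more, called here broad domains, were taken from cells of MDA-MB-231, an established human line of triple-negative breast cancer, profiled by CUT&Tag, in which an antibody directs the Tn5 transposase to release the DNA around a chromatin protein or histone mark. A domain was a peak of the H3K27ac list of PKM2-KD cells (genotype PKM2 knockdown) on chromosomes 1 to 22, at least 2500 bp from start to end, that overlapped by 1 bp or more any peak of the H3K27ac list of NC cells (genotype WT, the control). Of 208488 PKM2-KD peaks on these chromosomes, 69434 (33.3%) overlapped an NC peak and 895 met the whole rule, which was 0.429% of the list. The width and the overlap therefore chose the domains and are given as a description. The other libraries of the same line were H3T11ph in NC and PKM2-KD cells, and NONO in NC cells and in NONO-KD cells (genotype NONO knockdown). With a single library for each group nothing was replicated, and every difference below is a difference between these libraries. The study's methods describe both siRNA and shRNA knockdowns, and which was used for these libraries was not given in the sources used here. The lists hold no expression values, so neither knockdown could be checked from them.

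Acetylation of lysine 27 on histone H3 is written by p300 and CBP and read by bromodomain proteins such as BRD2. Wide stretches of the mark often cover enhancers and promoters of genes used strongly by a given cell type, and they lie within genes, between genes and around start sites alike. NONO is an RNA- and DNA-binding protein of paraspeckles, nuclear bodies built on the long RNA NEAT1. PKM2 is a pyruvate kinase of glycolysis that has been reported to act in the nucleus as a kinase for threonine 11 of histone H3, the site that the H3T11ph antibody reads. Genes were named from the RefSeq table of GRCh38.p14, the build of the peak lists being hg38 per the submitters' notes. The table gives both ends of a gene and no strand, so "gene end" means either end of a protein-coding gene.

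Promoters lying wholly inside a domain are shown first, since they give the sequence on which the mark was spread. RefSeq start windows, each running from 250 bases before to 50 bases after a start, were at hand for 15101 protein-coding genes, and 136 of them lay wholly inside a domain. The 5 genes of the lists described below whose window did so are printed with MT2A, which was chosen after its values were seen because it holds an AP-1 motif. They are VIM (chr10:17227991-17228240, plus strand), which encodes the mesenchymal filament protein vimentin, AJUBA (chr14:22982552-22982801, minus strand) and AMOTL2 (chr3:134375418-134375667, minus strand) of the Hippo pathway, BRD2 (chr6:32968344-32968593, plus strand), KRT8 (chr12:52926470-52926719, minus strand), a keratin of simple epithelium, and MT2A (chr16:56608334-56608583, plus strand), a metal-binding metallothionein. Each line gives the 250 bases before the start from 5′ to 3′, in hg38. Capitals mark AP-1 (TGANTCA), TEAD (GGAATG) and GC box (GGGCGG) motifs on either strand, and none of these motifs contains another.
VIM: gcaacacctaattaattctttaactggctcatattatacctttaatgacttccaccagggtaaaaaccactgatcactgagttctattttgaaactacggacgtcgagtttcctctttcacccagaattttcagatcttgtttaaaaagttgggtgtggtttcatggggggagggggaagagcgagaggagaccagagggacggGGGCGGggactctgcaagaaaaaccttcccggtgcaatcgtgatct
AJUBA: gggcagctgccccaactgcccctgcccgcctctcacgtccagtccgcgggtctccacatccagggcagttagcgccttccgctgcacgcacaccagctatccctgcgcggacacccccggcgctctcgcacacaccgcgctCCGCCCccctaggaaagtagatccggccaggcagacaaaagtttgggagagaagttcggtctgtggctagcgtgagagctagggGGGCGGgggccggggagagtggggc
AMOTL2: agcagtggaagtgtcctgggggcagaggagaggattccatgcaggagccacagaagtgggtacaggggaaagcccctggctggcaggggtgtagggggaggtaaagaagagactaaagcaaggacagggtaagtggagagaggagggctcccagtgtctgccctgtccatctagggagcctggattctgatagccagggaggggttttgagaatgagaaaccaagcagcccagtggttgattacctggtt
BRD2: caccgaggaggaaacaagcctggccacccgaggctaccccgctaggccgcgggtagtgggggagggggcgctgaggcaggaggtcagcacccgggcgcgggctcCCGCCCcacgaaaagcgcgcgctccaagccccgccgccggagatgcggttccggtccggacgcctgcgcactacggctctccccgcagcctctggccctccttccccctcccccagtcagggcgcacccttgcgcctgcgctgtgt
KRT8: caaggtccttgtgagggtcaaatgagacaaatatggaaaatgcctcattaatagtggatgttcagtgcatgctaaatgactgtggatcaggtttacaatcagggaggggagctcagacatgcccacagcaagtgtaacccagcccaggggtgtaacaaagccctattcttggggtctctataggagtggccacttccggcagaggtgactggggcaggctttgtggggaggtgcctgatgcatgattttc
MT2A: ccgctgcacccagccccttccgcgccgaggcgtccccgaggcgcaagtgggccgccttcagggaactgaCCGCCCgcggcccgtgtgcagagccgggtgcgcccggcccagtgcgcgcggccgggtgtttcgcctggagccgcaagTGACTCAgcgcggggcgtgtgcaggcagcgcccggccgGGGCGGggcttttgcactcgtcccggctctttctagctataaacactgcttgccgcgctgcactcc
These promoters were not of one kind. BRD2 held 27 CpG dinucleotides in its 250 bases and MT2A 32, whereas AMOTL2 held 0 and KRT8 1. AJUBA and MT2A each held 2 GC boxes, VIM and BRD2 1 each, and AMOTL2 and KRT8 none. The AP-1 motif of MT2A was the only AP-1 or TEAD motif among the 6. Over the whole 300-base windows, the AP-1 motif was present in 9 of the 136 windows inside domains (6.62%), against 5.70% of all 15101. The TEAD motif was present in 12.5% against 11.7%, the GC box in 64.7% against 58.9%, the TATA box (TATAAA) in 5.88% against 9.71% and the cAMP response element (TGACGTCA) in 2.21% against 2.65%. The median CpG count was 27 against 22. Among the 6769 windows that overlapped any PKM2-KD peak, the GC box was present in 69.6% and the median CpG count was 26, so windows inside domains were close to those under other peaks in these letters.

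The domains covered 3.04 Mb, which was 4.89% of the base pairs in the PKM2-KD list. Their widths ran from 2500 to 40106 bp with a median of 3043 bp and quartiles of 2722 and 3610 bp. There were 416 domains under 3000 bp, 139 over 4000 bp, 56 over 5000 bp and 2 over 10000 bp. The fold enrichment at the summit, which the authors' peak caller gives over the local background, ranged from 1.62 to 327 with a median of 32.0, against a median of 5.56 in all PKM2-KD peaks. Width was the criterion and no break in the list marked the limit. The 3 peaks just outside it were nearest SEC14L2 (2496 bp), CSRP1 (2497 bp) and MICAL2 (2498 bp), with 63.9%, 72.0% and 99.6% of their base pairs under NC peaks. The 3 just inside it were nearest FSTL1 (2500 bp), AFAP1 (2501 bp) and LAMB3 (2502 bp), with 92.0%, 60.9% and 92.0%. Only 1 peak of 2500 bp or more had no NC peak, a peak of 2898 bp nearest TARS3 (chr15:101760072-101762969) with a fold of 8.58.

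The widest domain stood apart. It spanned 40106 bp (chr19:36269121-36309226), lay over the long non-coding RNA gene CYKILR and was 23193 bp from the nearest protein-coding gene, ZNF565, a zinc finger gene. Its summit held 998 fragments in PKM2-KD and 575 in NC, and 96.0% of it was under NC peaks. It also held 36 H3T11ph peaks in NC and 27 in PKM2-KD, 1 NONO peak in NC and 24 in NONO-KD. The local background at its summit was 57.4 fragments in PKM2-KD and 55.7 in NC, against medians of 2.50 and 1.94 over the domains. The part of this background in the peak counts of this domain was not tested, and the densities and ratios of H3T11ph and NONO peaks below are also given without it or without the 2 widest domains.

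The next widest domain covered 14137 bp at UQCC1 (chr20:35302661-35316797), which encodes an assembly factor of respiratory complex III. It was 93.4% covered in NC, with summits of 703 and 579 fragments in PKM2-KD and NC. A domain of 8787 bp (chr6:67880982-67889768) lay 745514 bp from its nearest protein-coding gene, ADGRB3, and was 92.5% covered. The remaining domains of the 12 widest were nearest NIBAN2 (8596 bp), the formin gene FMNL1 (8431 bp), the ciliary gene EVC (8299 bp), AMOTL2 (7718 bp), FAM171A1 (7572 bp), ZNF675 (7352 bp), the receptor tyrosine kinase gene AXL (7322 bp), the guidance receptor gene ROBO4 (7226 bp) and the kinase gene CSNK1E (7149 bp). Of these, FMNL1 was the least covered in NC at 55.6% and AXL the most at 98.7%, the latter by a single NC peak. Of the 12, the domains at UQCC1, NIBAN2, FMNL1, EVC, AMOTL2, AXL, ROBO4 and CSNK1E overlapped the gene that they were nearest to.

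NC peaks covered most of most domains. The NC list was the longer, with 556239 peaks on chromosomes 1 to 22 against 208488 in PKM2-KD. The median share of a domain under NC peaks was 82.8%, with quartiles of 67.4% and 92.3% and a range of 14.1% to 100%, and together 2387666 of 3035071 bp (78.7%) were covered. The share was over 50% in 814 domains, over 75% in 578 and over 90% in 278, and 38 domains were covered fully. A single NC peak lay in 307 domains and 5 or more lay in 34. The summit of the PKM2-KD peak fell in an NC peak in 865 domains (96.6%). The median share was 70.9% in shared PKM2-KD peaks of 1000 to 2499 bp (7735 peaks, called middle peaks below) and 57.4% in all 68539 shared peaks under 2500 bp. Across domains the share had a Spearman correlation of 0.0785 with width and of 0.622 with NC summit height (n = 895 and 887, domains of 1 pair of libraries). The 5 widest fully covered domains were nearest MYO16, C11orf68, the cytidine deaminase gene CDA, DLGAP1 and CALML3, between 3985 and 6138 bp wide.

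**Figure D1:**
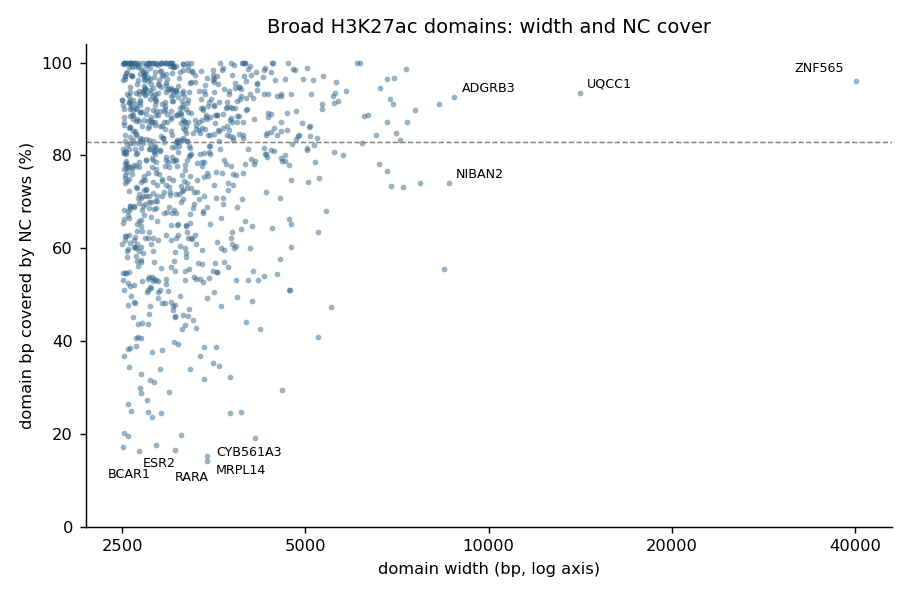
Each point is 1 of the 895 domains, by width (bp, log axis) and the share of its base pairs under H3K27ac NC peaks (percent), labelled by nearest protein-coding gene, and the dashed line is the median of 82.8%. Most points lie under 5000 bp, where they spread from 14.1% to 100%, and the 2 widest domains are 96.0% and 93.4% covered.

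The least covered domains were low in both lists. A domain of 3442 bp within the RNA gene SCIRT, nearest MRPL14, was 14.1% covered, and its summits held 59 fragments in PKM2-KD and 50 in NC. At CYB561A3 15.3% was covered, with 73 and 22 fragments. At ESR2, which encodes estrogen receptor beta, 16.3% was covered, with 42 and 55 fragments. The retinoic acid receptor gene RARA followed at 16.5% (45 and 39 fragments) and the focal adhesion adaptor gene BCAR1 at 17.2% (44 and 31 fragments). At ESR2 the NC summit was the taller although the NC peaks there were narrower than the domain.

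The 2 H3K27ac lists were not called alike. In NC 79.3% of peaks were all of 1 width, the smallest in the list, against 1.19% in PKM2-KD, and NC pileups had been multiplied by 0.521 before calling. Differences in peak width between NC and PKM2-KD cannot be told apart from this difference in calling. The summit height of a peak in fragments, recovered from the deposited fold and p as set out in the methods, does not depend on where that peak was ended. The depth implied by the lists was 7.47 fragments per kb in PKM2-KD and 7.46 in NC. For NC the tallest peak with its summit inside the domain was taken, so the NC value does depend on how NC peaks were divided. The median height over the domains was 130 fragments in PKM2-KD (quartiles 87 and 215, range 22 to 998, n = 895) and 97 in NC (quartiles 59 and 158, range 12 to 824, n = 887). The median of NC over PKM2-KD within a domain was 0.733, with quartiles of 0.586 and 0.916. PKM2-KD was the taller in 721 domains, NC in 161, and 5 were equal. The domains were chosen on the PKM2-KD list, which can by itself make PKM2-KD the taller. In the 498 NC peaks of 2500 bp or more, all of which overlapped a PKM2-KD peak, the median of NC over PKM2-KD was 0.831, and PKM2-KD was the taller in 338 of 481 with both heights. Heights in the 2 libraries had a Spearman correlation of 0.870 over the domains, and summits lay within 200 bp of each other in 549 domains (61.3%).

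**Figure D2:**
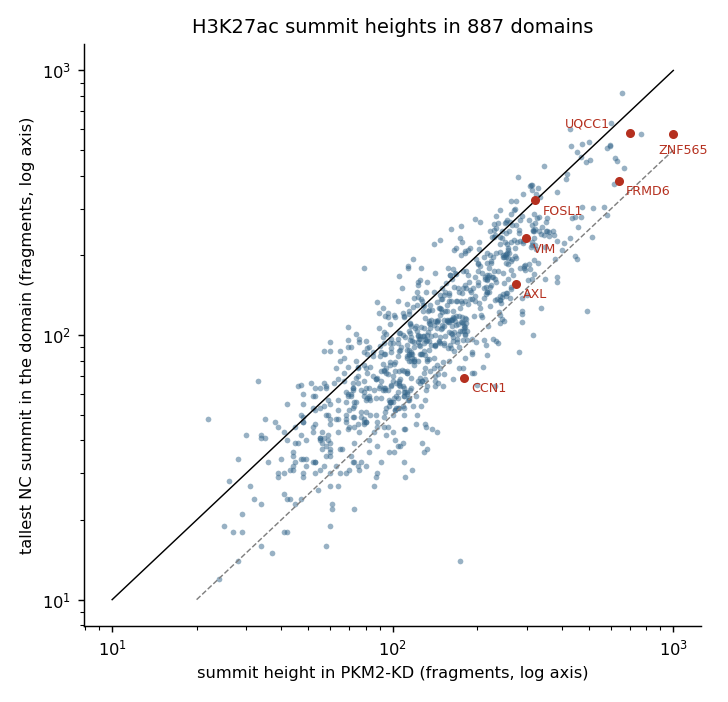
Each point is 1 of 887 domains, by its H3K27ac summit height in PKM2-KD and its tallest NC summit (fragments, log axes), with equality as a solid line and NC at 0.5 of PKM2-KD as a dashed line. Most points lie between the lines, 110 lie below the dashed line, and FOSL1 (322 and 323 fragments) lies on equality while CCN1 (180 and 69) lies well below it.

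The highest fold among the domains was at FRMD6, a FERM-domain gene upstream of the Hippo kinases, with 327. Its summit held 639 fragments in PKM2-KD and 382 in NC. It was followed by TRAF3IP2, the adaptor of the interleukin-17 receptor (fold 267, 491 fragments in PKM2-KD and 123 in NC), a domain 596978 bp from LOC124905050 (fold 259, 505 and 458 fragments), RPTOR, the scaffold of mTORC1 (fold 243, 447 and 199 fragments), and the kinase gene CAMK1D (fold 233, 455 and 193 fragments). All 5 were taller in PKM2-KD, as were 721 of the 887 domains with both heights. They were ranked by the PKM2-KD fold, which by itself favours a taller PKM2-KD summit. NC was over 2 times the PKM2-KD height in 3 domains and under 0.5 times in 110. The 3 were named after their values were seen and were at the phosphatase gene DUSP7 (22 fragments in PKM2-KD and 48 in NC), CUBN (79 and 180) and nearest DDX60L (33 and 67).

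The domains were less often near a gene end than the middle peaks. A gene end lay within 1 kb of 228 domains (25.5%, 95% Wilson interval 22.7 to 28.4), against 9.11% of all PKM2-KD peaks. The share was 32.5% in the middle peaks, so that the domains were lower by -7.05 percentage points (95% Newcombe interval -9.99 to -3.92), and 15.0% in all narrower shared peaks. The summit itself was within 1 kb of a gene end in 14.2% of domains and 28.2% of middle peaks, a difference of -14.0 points (-16.4 to -11.4). A start of a RefSeq window lay inside 167 domains (18.7%), against 2.73% of all PKM2-KD peaks and 24.5% of middle peaks. The share that overlapped no protein-coding gene, whether or not an end was near, was alike. It was 30.6% in domains and 31.1% in middle peaks, a difference of -0.504 points (-3.61 to 2.76). Of the 895 domains, 228 were at a gene end and 406 (45.4%) lay inside a protein-coding gene and away from its ends. The other 261 (29.2%), called between genes below, overlapped no protein-coding gene and had no gene end within 1 kb. Some of these lay over long non-coding RNA genes. These intervals, as all others here, cover counting error only, and domains are not replicates of a condition.

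The position classes were alike in median width, and no clear difference was seen in the shares with an H3T11ph NC or a NONO NC peak. The median width was 2993 bp at gene ends, 3062 bp inside genes and 3059 bp between genes. The NC cover was 81.7%, 80.8% and 86.5% in the same order, and the median PKM2-KD height was 108, 132 and 148 fragments. H3T11ph NC peaks were present in 43.0% of the domains at gene ends, 37.2% inside genes and 43.7% between genes. NONO NC peaks were present in 54.4%, 52.2% and 49.0%. The interval of each difference between gene ends and another class included 0, from -9.41 to 13.7 points for H3T11ph NC and from -5.91 to 14.1 points for NONO NC over both comparisons. Differences of up to these sizes are therefore not excluded. By chromosome, domains made up from 0.170% of the PKM2-KD peaks (chromosome 4) to 0.692% (chromosome 19).

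H3T11ph and NONO were measured in other libraries and had no part in choosing the domains. An H3T11ph NC peak lay in 363 domains (40.6%, 37.4 to 43.8), against 3.82% of all PKM2-KD H3K27ac peaks. An H3T11ph PKM2-KD peak lay in 494 domains (55.2%, 51.9 to 58.4), against 3.88% of all. A NONO NC peak lay in 464 (51.8%, 48.6 to 55.1), against 5.68%, and a NONO-KD peak in 167 (18.7%, 16.2 to 21.3), against 2.16%. A wider region has more room for a peak, so the shares were also set on length. Per Mb, the domains held 169 H3T11ph NC summits (exact Poisson interval 154 to 184), close to the 167 of the middle peaks (159 to 175). H3T11ph PKM2-KD reached 245 per Mb (228 to 264), above the 216 of the middle peaks (207 to 224). NONO NC reached 199 (184 to 216), above 161 (154 to 169). NONO-KD was at 68.9 (59.8 to 78.9), with 59.1 in the middle peaks (54.7 to 63.8). For H3T11ph NC the excess over middle peaks in the share of regions was thus not seen per Mb. Without the widest domain the densities were 159 (145 to 174) for H3T11ph NC, 240 (223 to 258) for H3T11ph PKM2-KD, 202 (186 to 218) for NONO NC and 61.8 (53.2 to 71.3) for NONO-KD, so that the interval for H3T11ph PKM2-KD then met that of the middle peaks. All 4 lists had a peak in 56 domains, and none of the 4 had one in 146 (16.3%). These counts were not made for other peaks and depend on width, so they are a description only.

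**Figure D3:**
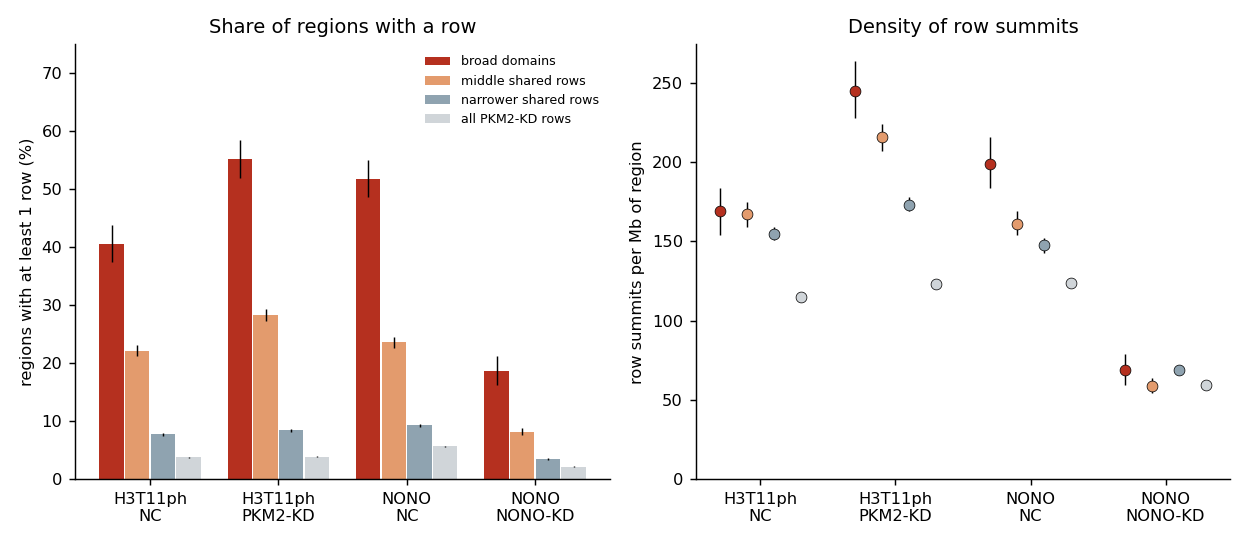
Left, the share of H3K27ac PKM2-KD regions with at least 1 peak of each of 4 lists (percent, bars with 95% Wilson intervals), and right, summits of those peaks per Mb of region (points with exact 95% Poisson intervals), for broad domains, middle shared peaks of 1000 to 2499 bp, narrower shared peaks and all PKM2-KD peaks. The domains have the highest share in every list, between 18.7% and 55.2%, while per Mb the domains and middle peaks nearly coincide for H3T11ph NC (169 and 167).

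Within the domains, H3T11ph summits were denser in the base pairs also under H3K27ac peaks in NC. Of 512 H3T11ph NC summits, 482 (94.1%) lay in the part under H3K27ac NC peaks, which was 202 per Mb (184 to 221) there against 46.3 per Mb (31.3 to 66.2) in the rest. H3T11ph PKM2-KD gave 290 per Mb (269 to 313) against 80.3 (60.0 to 105). NONO NC was more evenly placed, at 214 per Mb (196 to 234) against 144 (116 to 176), and NONO-KD was at 76.6 (65.9 to 88.6) against 40.2 (26.2 to 58.8). Without the widest domain these densities were 190 against 46.5 for H3T11ph NC, 284 against 80.5 for H3T11ph PKM2-KD, 218 against 144 for NONO NC and 68.1 against 38.7 for NONO-KD. H3T11ph also went with the height of the domain. With the domains split into 3 groups by PKM2-KD summit height, H3T11ph NC was present in 28.7%, 39.3% and 53.7% of domains from low to high, and NONO NC in 48.3%, 50.8% and 55.7%. The median width was, in the same order, 2837, 3022 and 3274 bp, and its part in this was not tested.

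H3T11ph peaks were more frequent in the domains that held a NONO peak. An H3T11ph NC peak lay in 220 of the 464 domains with a NONO NC peak (47.4%) and in 143 of the 431 without (33.2%), a difference of 14.2 points (7.81 to 20.5). The domains with NONO were also wider, with a median of 3149 bp against 2935 bp, and the part of width in this was not tested. Of the 516 H3T11ph NC peaks that touched a domain, 145 overlapped a NONO NC peak, whether or not the shared bases were inside the domain. The same share was not computed for the whole H3T11ph NC list, so no excess can be read from it. The difference was of like size with the knockdown libraries. It was 12.9 points (6.41 to 19.3) for H3T11ph PKM2-KD peaks by NONO NC peaks. For H3T11ph NC peaks by NONO-KD peaks it was 13.4 points (5.11 to 21.7).

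The number of H3T11ph peaks in the domains was higher after PKM2 knockdown, while the whole list was shorter. The domains held 516 H3T11ph peaks in NC and 748 in PKM2-KD, a ratio of 145% (exact interval 129 to 162). In the middle peaks the ratio was 130% (122 to 138), and in the whole lists, 41692 peaks in NC and 35720 in PKM2-KD, it was 85.7% (84.5 to 86.9). The depth implied by these lists was 3.35 fragments per kb in NC and 3.42 in PKM2-KD, and the pair had been called in 1 form, with 1.82% and 1.42% of peaks at the narrowest width. Without the 2 domains over 10000 bp the ratio was 150%, and over the 498 wide NC peaks it was 136% (118 to 158). An H3T11ph peak was present in both libraries in 248 domains, only in NC in 115, only in PKM2-KD in 246 and in neither in 286. This split was not made for the middle peaks or for all PKM2-KD H3K27ac peaks, so it describes the domains without a background. Of the 516 NC peaks, 196 (38.0%) overlapped a PKM2-KD peak, against 5.79% in the whole NC list. The share was not computed in the middle peaks, nor without the domain nearest ZNF565, which held 36 of the 516. The domains nearest EVC (0 in NC and 4 in PKM2-KD), ALDH3B1 (2 and 5) and S100A6 (1 and 4) held more in PKM2-KD, and the 2 domains of the septin gene SEPTIN9 with the most NC peaks held fewer (5 and 3, and 3 and 1). The first 3 of these genes were named after their values were seen.

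NONO peaks in the domains were fewer in NONO-KD. There were 630 in NC and 212 in NONO-KD, a ratio of 33.7% (28.7 to 39.4), against 34.1% in the middle peaks and 49.7% (49.1 to 50.2) in the whole lists. The 2 NONO lists were not called alike, with 94.6% of peaks at the narrowest width in NC and 2.05% in NONO-KD and implied depths of 3.34 and 2.84 fragments per kb, and this cannot be told apart from the knockdown. Among peaks of 2 times the narrowest width or more, the direction turned, with 29 in NC and 47 in NONO-KD (162%, 99.9 to 267). With so many NC peaks at the list's narrowest width, this comparison uses few of them. The ratio without the 2 domains over 10000 bp was 30.0% (25.3 to 35.3). A NONO peak was present in both libraries in 105 domains, only in NC in 359, only in NONO-KD in 62 and in neither in 369. As for H3T11ph, this split was not made for other peaks. Of the 630 NC peaks in domains, 40 (6.35%) overlapped a NONO-KD peak, against 2.04% in the whole list. By position the ratio was 24.9% at gene ends (17.4 to 34.9), 27.8% inside genes (21.4 to 35.7) and 52.7% between genes (40.3 to 68.5), where the domain nearest ZNF565 alone held 24 of the 89 NONO-KD peaks. Without it the ratio between genes was 38.7% (28.6 to 51.8).

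**Figure D4:**
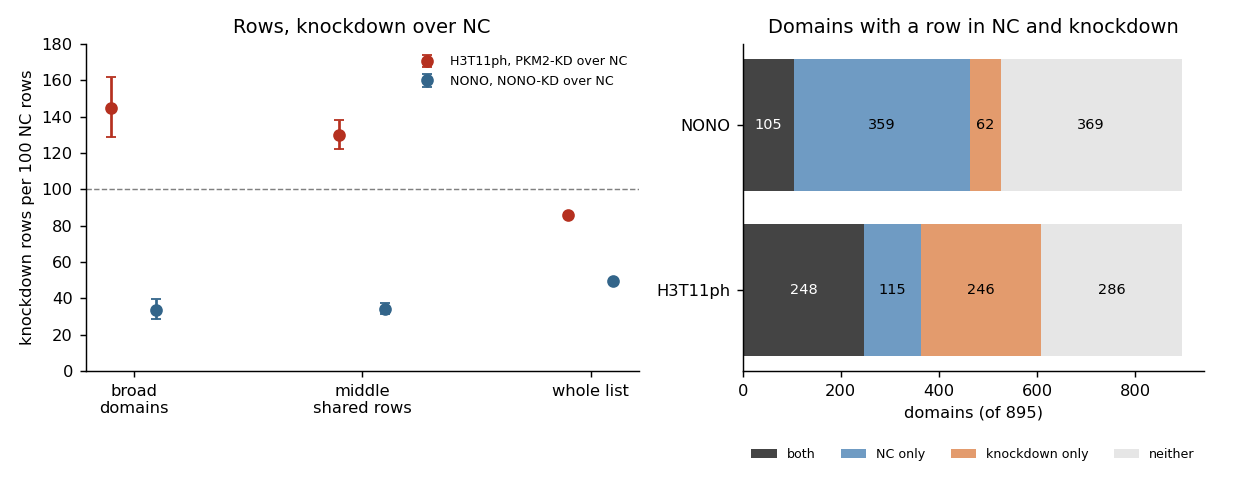
Left, knockdown peaks per 100 NC peaks, with exact 95% intervals, for H3T11ph (PKM2-KD over NC) and NONO (NONO-KD over NC) in broad domains, in middle shared peaks and in the whole lists, and right, the number of domains with a peak in both libraries, in 1 or in neither. H3T11ph is above 100 in the domains (145) and below it in the whole list (85.7), and NONO is below 100 in all 3.

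The domains with the most H3T11ph NC peaks, after that nearest ZNF565 with 36, were at SEPTIN9 (5, chr17:77284891-77289223) and ZMYND8, a chromatin reader gene (4). Another 16 domains held 3, the widest of them at SEPTIN9 (chr17:77318825-77325073) and at GNAI2, a G protein subunit gene. In NONO NC the domain at NIBAN2 held 5 peaks, and 5 domains held 4, of which the widest were at AXL, PXN, the collagen gene COL13A1 and the ephrin receptor gene EPHA2. None of these held more than 1 NONO-KD peak. NIBAN2 and AXL held 2 H3T11ph NC peaks each, and COL13A1 and EPHA2 held none.

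Several genes carried more than 1 domain. A domain lay within 1 kb of an end of 273 of 19126 protein-coding genes (1.43%), in 7 of them 2 or more. Counting the whole gene, 555 genes (2.90%) were overlapped, 90 by 2 or more domains and 26 by 3 or more. ACTN4, which encodes the actin crosslinker alpha-actinin-4, carried 5 domains with 20483 bp in a gene of 83.9 kb, and heights ranged from 48 to 215 fragments in PKM2-KD and from 30 to 224 in NC. SH3BP4 (15988 bp), RPTOR (14109 bp), ZMIZ1 (13529 bp), TTC7A (13329 bp), the membrane repair gene MYOF (11937 bp) and SUSD1 (10519 bp) carried 4 each. In MYOF every domain was tall, with 204 to 669 fragments in PKM2-KD and 268 to 427 in NC, whereas SH3BP4 ranged from 24 to 191 and from 12 to 97. SMAD3, a transcription factor of TGF-beta signalling, and BCL2L1, an inhibitor of apoptosis, carried 3 each, with 14981 and 13349 bp.

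Joined across gaps of up to 10 kb, the domains formed 804 clusters, of which 81 held 2 to 4 domains and 172 domains in all. Among these 81, the one with the most domain base pairs was near MYEOV (chr11:69293841-69323027), with 4 domains and 15534 bp, 75.6% of it covered in NC. It was followed by clusters near FOSL1 and C11orf68 (3 domains, 12442 bp, 94.5% covered), SH3BP4 (12197 bp, 67.3%), ANKRD11 (11358 bp, 69.5%), SMNDC1 and DUSP5 (10728 bp, 88.7%), AMOTL2 (10286 bp, 69.3%), TRAM2 (10005 bp, 94.4%), PXN (9697 bp, 83.2%), ZFP36L1 (9691 bp, 83.9%) and CSNK1E (9665 bp, 84.3%). The FOSL1 cluster held 4 H3T11ph peaks in NC and 7 in PKM2-KD, and 5 NONO peaks in NC and 1 in NONO-KD. The SH3BP4 cluster held 0 and 1 H3T11ph peaks and 1 and 0 NONO peaks, so that clusters of like size differed in both. The MYEOV cluster held 2 domains of 110 and 29 fragments in PKM2-KD (50 and 18 in NC) beside 2 of 374 and 565 (247 and 305 in NC).

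**Figure D5:**
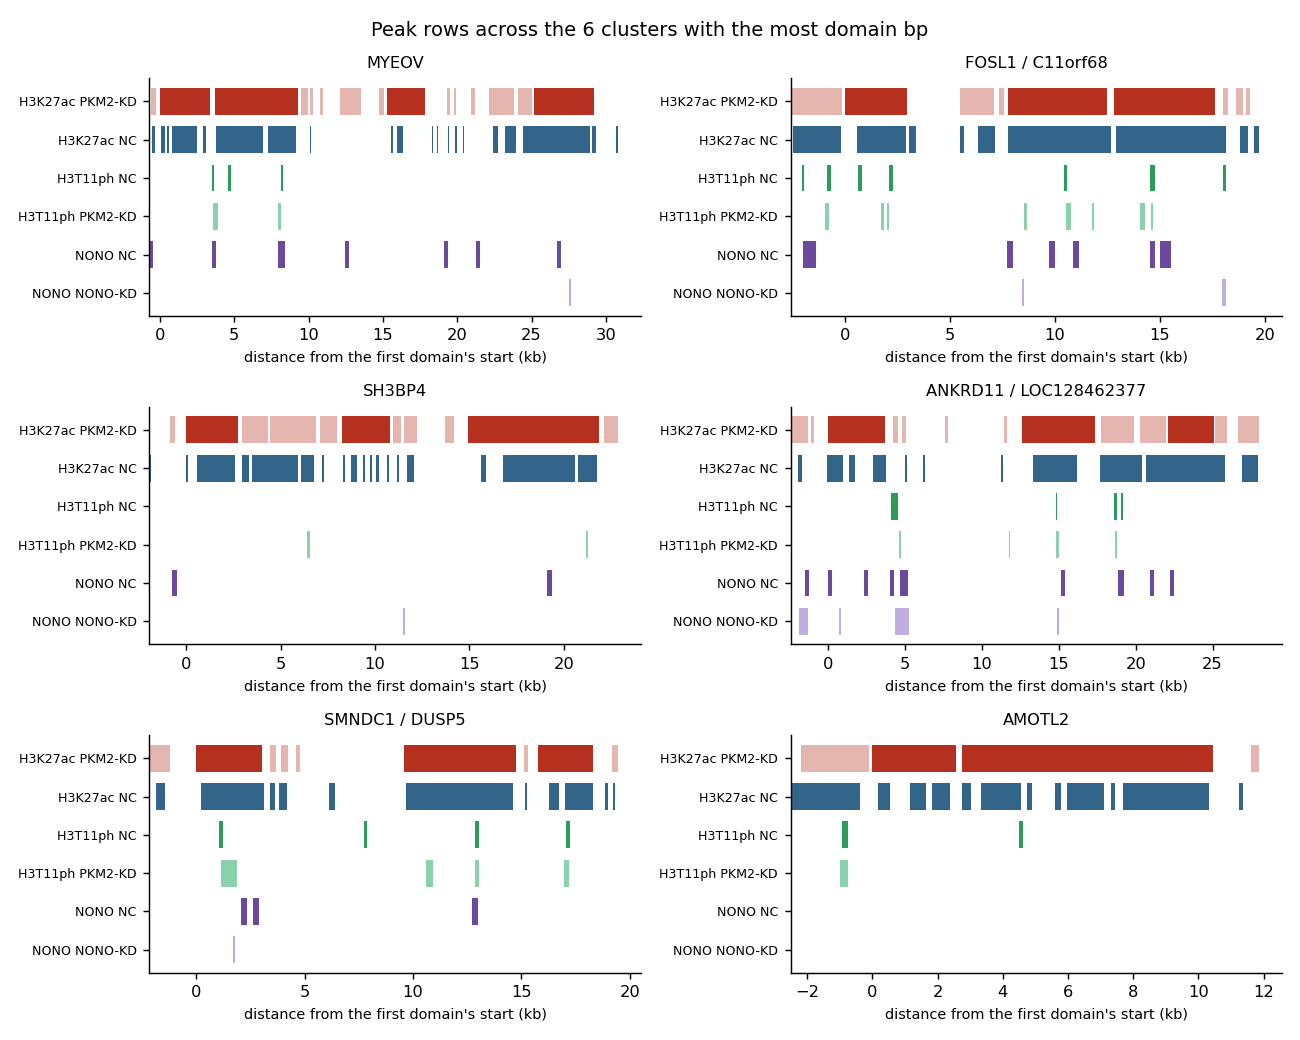
Peaks of the 6 lists across the 6 clusters of 2 or more domains with the most domain base pairs, drawn to scale by distance from the start of the first domain (kb), with domains in full red and narrower H3K27ac PKM2-KD peaks in pale red. NC peaks lie under most of the domain base pairs in each cluster, between 67.3% (SH3BP4) and 94.5% (FOSL1). Single domains can be less covered, as near MYEOV from 15.287 to 17.845 kb, where NC peaks are few and short. The NC peaks are in more pieces near SH3BP4 than near FOSL1, and the AMOTL2 domains hold 1 H3T11ph NC peak and no NONO peak.

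Genes were then grouped by role, in 12 lists described by their counts beside all genes, of which 1.43% had a domain within 1 kb of an end and 2.90% were overlapped by one. Of 20 genes of the YAP and TEAD pathway, which carries Hippo signals to transcription, 4 had a domain within 1 kb of an end and 8 were overlapped by one. CCN1, a secreted matrix protein and a well-known target of YAP, had a domain of 3540 bp with 180 fragments in PKM2-KD and 69 in NC. AJUBA, a LIM scaffold protein, had a domain of 6811 bp with 87 and 68 fragments. AMOTL2, an angiomotin that binds YAP, had domains of 7718 bp (164 and 117 fragments) and 2568 bp (47 and 34 fragments). FRMD6 had domains of 3231 bp and 2955 bp (212 and 197 fragments in the narrower). The genes overlapped away from their ends were TEAD3, VGLL4, AMOTL1 and NF2, with 290, 169, 48 and 187 fragments in PKM2-KD and 282, 135, 34 and 158 in NC. As a ratio of NC to PKM2-KD height, CCN1 was the lowest of these genes and TEAD3 the highest.

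Of 20 AP-1 genes, whose products bind DNA as dimers of FOS and JUN proteins, FOSL1 and FOSL2 had a domain within 1 kb. The FOSL1 domain (2949 bp, chr11:65901261-65904209) lay 716 bp from the gene, with 322 fragments in PKM2-KD and 323 in NC, and held 2 H3T11ph NC peaks. The FOSL2 domain (2926 bp) held 49 and 32 fragments. Of 24 mesenchymal genes, VIM and AXL had a domain within 1 kb, and LOXL2 and NT5E were overlapped. The VIM domain (4394 bp, chr10:17226445-17230838) was 98.0% covered in NC, with 298 and 232 fragments. The AXL domain held 274 and 156 fragments. LOXL2, which encodes a collagen crosslinking enzyme, carried 3 domains of 113 to 197 fragments in PKM2-KD and 57 to 140 in NC.

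Of 22 actin and focal adhesion genes, 0 had a domain within 1 kb of an outer end, and 5 were overlapped by one. Among these were ACTN1 (2 domains), ACTN4 (5, of which 1 holds a RefSeq start of the gene), PXN, the focal adhesion adaptor paxillin (2), and MYH9, the heavy chain of non-muscle myosin IIA (3). The widest PXN domain held 252 fragments in PKM2-KD and 266 in NC, and the widest MYH9 domain (5022 bp) held 184 and 96. Of 26 integrin genes ITGB2, the beta chain of leukocyte integrins, had a domain within 1 kb (3442 bp, 320 and 170 fragments), and ITGA3 and ITGA6 were overlapped (255 and 144, and 352 and 267 fragments). CSF3, the gene of the cytokine G-CSF, was the only one of 22 cytokine and NF-kappaB genes (2730 bp, 53 and 52 fragments), and BRD2 the only one of 13 acetylation writers and readers (4047 bp, 237 and 175 fragments).

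No domain lay within 1 kb of an outer end of any of 24 luminal epithelial genes, 12 lymphoid, 10 hepatocyte or 10 skeletal muscle genes, or 9 genes that the study lists as lowered by both knockdowns. A domain within KRT8 (3066 bp, 136 fragments in PKM2-KD and 130 in NC) was the only one to overlap a gene of these 5 lists, and it holds the RefSeq start whose window is printed above, which is not an outer end of the gene. H3K27ac peaks of any width were nonetheless within 1 kb of 17 of the 24 luminal genes and 7 of the 9 genes in PKM2-KD, and of 2 of the 12 lymphoid genes, against 65.6% of all protein-coding genes. Peaks of any width were within 1 kb of 19 of the 24 mesenchymal, 5 of the 10 hepatocyte and 4 of the 10 muscle genes in the same library, and against the same 65.6% these small lists give only a weak check of the line's label. The lists are small, and 1 gene moves a share of 24 by more than the 1.43% of all genes.

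Housekeeping and stress genes, named after their values were seen, also carried domains. GAPDH, the glycolytic enzyme, had 2, of 3924 bp (36 fragments in PKM2-KD and 33 in NC, 24.8% covered) and 2598 bp (115 and 110 fragments, 97.1% covered). DUSP1, a phosphatase of MAP kinases, had a domain of 4410 bp with 94 and 118 fragments and 2 H3T11ph NC peaks. MT2A had a domain of 4156 bp with 518 and 301 fragments, and a local background of 100 and 108 fragments, among the highest of all domains. Its fold was 5.12, so a tall summit there went with a low fold.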

How the data were processed

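CUT&Tag libraries for H3K27ac and H3T11ph (NC and PKM2-KD) and for NONO (NC and NONO-KD) were sequenced from MDA-MB-231 cells, 1 library per group, and samples were placed by title. Per the submitters' processing notes, the tools included FastQC 0.11.9, cutadapt 1.18, SAMtools 1.3.1 and MACS2 2.1.1.20160309, with the build hg38. The aligner, duplicate handling and control were not given in the sources used here. The authors deposited 1 peak list per library, without pooling of libraries as far as the labels say, in which the score is an integer form of the q-value, the fold is the ratio of the summit pileup to the local background, and p-values and q-values are given as −log10. The smallest −log10 q was between 1.3023 and 1.31777.

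Domains, overlaps of at least 1 bp, covered base pairs and distances to genes were computed with Python 3.11.15, numpy 2.4.6, pandas 2.3.3, scipy 1.17.1 and statsmodels 0.14.6. A peak belonged to a region wherever they overlapped by 1 bp, and densities used summits. Heights were recovered by trying whole fragment numbers, with the NC pileup multiplied by a factor found by search, until the recomputed −log10 p matched within 0.002. Of 3000 peaks tried per list, 100% were matched, after rounding. With the fold raised by 1%, between 0.100% and 2.87% were matched. Depth was the most frequent background over the smallest peak width, with that width assumed to be the fragment length. Overlap, cover, height recovery and the Wilson interval were tested on simulated data, and the other intervals were not.

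Shares carry 95% Wilson intervals, differences Newcombe intervals, densities exact Poisson intervals and ratios of counts exact conditional intervals. No p-value was computed, since each group held 1 library. The domains, gene lists and comparisons were chosen with earlier results of these data known. Named genes were those of the 12 widest domains, the 10 clusters with the most domain base pairs, the 5 domains highest and the 5 lowest in NC cover, the 5 with the most H3T11ph NC peaks, with the most NONO NC peaks and with the highest fold, the 3 on each side of the width limit, and the listed genes with a domain. One listed gene with a domain is counted but not reported by name here. Genes outside this rule are said to be chosen after their values were seen. RefSeq start windows were missing for some genes, and none was searched elsewhere. Alternatives to the width, q, overlap, distance and joining rules were tried.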

Additional observations from a re-analysis of the deposited data

Results flagged for a closer look

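Chromosome X was outside the rule and holds domains of the same kind. There were 11 H3K27ac PKM2-KD peaks of 2500 bp or more on it that overlapped an NC peak. They were between 2501 and 3538 bp wide, with folds of 2.43 to 125 and NC cover of 40.0% to 99.9%. No comparison with chromosomes 1 to 22 was made.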

How the results depend on the processing

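Of 49 alternative values, 34 stayed within the interval of the reported value or within 1.5 times the reported count, 14 moved and 1 reversed. The number of domains was 1722 with a minimum width of 2000 bp, 479 with 3000 bp and 3378 when PKM2-KD peaks were first joined across gaps of 500 bp, against 895. The median NC cover was 93.1% with NC peaks joined across 500 bp and 80.3% with a minimum width of 2000 bp. With peaks of 2 times the narrowest width or more, the share of domains with a peak was 15.9% for H3T11ph NC, 22.7% for H3T11ph PKM2-KD, 3.02% for NONO NC and 2.57% for NONO-KD, and the NONO ratio reversed to 162%. That filter removes the 94.6% of NONO NC peaks at the narrowest width. A gene end was within 5 kb of 34.9% of domains and inside 19.3%. A domain overlapped 23 listed genes, against 11 with one within 1 kb of an end. The regions chosen from the NC list and the values without the widest or the 2 widest domains were added after seeing the data. Without the widest domain, the NONO ratio between genes was 38.7% against 52.7%. In regions chosen from the NC list, the median of NC over PKM2-KD height was 0.831 against 0.733. The H3T11ph ratio was between 136% and 153% under its 5 alternatives. No paired analysis was possible because there was 1 library for each group. Without replicates, no difference between NC and knockdown can be set against the spread between cultures, and the differences in peak calling in the H3K27ac and NONO pairs cannot be told apart from the knockdowns. No NC summit with a recovered height lay inside 8 of the 895 domains.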

Other observations

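Non-coding genes lay under some of the domains. A gene annotated as a long non-coding RNA overlapped 231 of the 895 domains, and 8 domains held a microRNA gene. The same counts were not made for other peaks, and wide regions have more room for a gene, so no excess can be read from them. The microRNA genes were MIR4492 in the domain at BCL9L, a Wnt co-activator gene (306 fragments in PKM2-KD and 271 in NC), MIR4669 at the retinoid receptor gene RXRA (100 and 93), MIR6090 at the transcription factor gene ETS1 (261 and 138), MIR3124 at SH3BP5L (140 and 82), MIR6124 at MICAL2 (208 and 117), MIR4784 at MZT2A (43 and 24), MIR6827 at AMOTL2 (47 and 34) and MIR4734 near MLLT6 (58 and 38). All 8 were taller in PKM2-KD, as were 721 of the 887 domains with both heights. Whether these RNAs were made in the cells was not measured. A domain of 4771 bp lay over PVT1 with MYC as its nearest protein-coding gene, 108240 bp away. Its summit held 614 fragments in PKM2-KD and 371 in NC, it was 98.6% covered in NC, and it held 3 H3T11ph peaks in NC and 2 in PKM2-KD.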
